A study of Mus musculus with 28 samples.

Results

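Splenic CD8 T cells treated with vorinostat at 2 µM were compared with control CD8 T cells. The comparison was chosen by its labels, without use of measured values: 4 of the 28 arrays of a mouse series belong to it, 2 of vorinostat at 2 µM and 2 of control. In the whole series 14 groups hold 2 arrays each. They cover CD8 and CD4 T cells, kept with vorinostat at 0.5, 2 or 10 µM, with romidepsin at 2, 10 or 30 nM, or without drug. All cells were taken from spleen by negative selection, a method that removes the unwanted cells and leaves the wanted ones untouched. All groups, the controls included, were stimulated for 2 days with plate-bound antibody to CD3 and soluble antibody to CD28, so the control is an activated T cell and not a resting one. Vorinostat was then given for 1 day. For the controls the label fields used here give the 2 days of stimulation and no later day, so an equal time of harvest is not stated. The labels name no vehicle for the controls and no strain, age or sex of the mice. They do not say whether RNA was pooled over mice, or whether the drug and control arrays of a replicate came from the same mouse.

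Histone deacetylases remove acetyl groups from lysines of histones and of many other proteins, and acetylated histones mark accessible, transcribed chromatin. Vorinostat is a hydroxamic acid that blocks the zinc-dependent members of this enzyme family and is used against cutaneous T cell lymphoma. An activated CD8 T cell divides, builds ribosomes and new metabolites, and makes the cytokines, chemokines and cytotoxic granules with which it acts on infected or malignant cells.

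Values are log2 units. Behind each ± stands the standard error of that change, with n = 2 arrays per group. A gene was tested when it exceeded the detection level of 4.27 log2 units in at least 2 of the 28 arrays, which left 9871 of 18194 genes. It was called changed at an adjusted p under 0.05. Arrays of the same replicate number were paired in the fit, because all arrays of 1 number differ from those of the other number in features the labels do not name. All 14 arrays numbered 1 held the Y-linked Eif2s3y and no Xist signal, and all 14 numbered 2 held Xist and no Eif2s3y signal, so the replicates come from mice of different sex and are not technical repeats. With 1 number per sex, the sex of the mice and any other difference between the numbers, such as a separate normalization, cannot be told apart. Each number holds 1 array of each group.

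The CD8 label fitted its markers in all 4 arrays. Cd8a, a chain of the CD8 co-receptor, stood at 11.55 and 11.99 log2 units in the vorinostat arrays, against 11.08 and 11.59 in the control arrays. Its partner Cd8b1 stood at 12.36 and 12.60 in the vorinostat arrays, against 11.93 and 12.18 in the control arrays, and Cd4 lay under the detection level throughout. The vorinostat arrays had 8532 and 9192 genes over the detection level, against 8481 and 9058 in the control arrays. The 3' minus 5' signal of beta-actin, which grows as RNA breaks down, was 1.16 and 0.96 log2 units with vorinostat and 0.86 and 0.79 in the controls, higher with the drug in both replicates. For Gapdh that difference was 0.16 and 0.14 with vorinostat and 0.20 and 0.08 in the controls. The actin difference also grew with dose: in CD8 arrays it was 0.98 and 0.88 at 0.5 µM and 1.43 and 1.16 at 10 µM of vorinostat. The part of RNA integrity in the changes therefore cannot be told apart from the drug. A fit with the actin difference as a covariate was run as an alternative, but this covariate can take up drug effect as well. With it 29 of 181 named genes lost their call and the medians of 27 of 41 lists moved. Its count is given below where the calls of a list move by over 1.5 times.

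After vorinostat at 2 µM, 3637 of 9871 genes were called, which is 36.8% (limma, Benjamini-Hochberg adjustment). Of these, 1616 were higher (16.4% of all genes tested) and 2021 lower (20.5%). All 3637 moved the same way in both replicates, which a call in the paired fit itself favours. Changes past 1 log2 unit were found in 570 of the higher and 480 of the lower genes. The drug and control arrays did not overlap in 2236 of the called genes, against 3249 of all genes tested (32.9%). The called genes were chosen on these same arrays. Changes tended to be larger in replicate 1. Their SD across genes was 0.80 in replicate 1 and 0.62 in replicate 2, and 2949 of the called genes changed more in replicate 1. In the plot of the 2 replicate pairs against each other the cloud is flatter than the line of equal change.

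**Figure D1:**
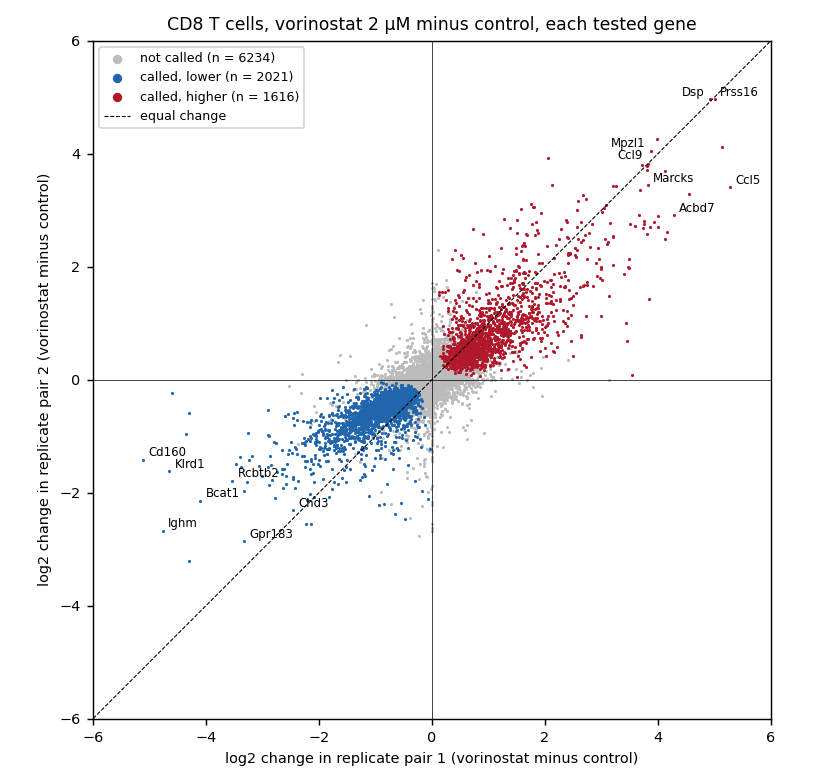
Each point is 1 tested gene. The x axis gives the log2 change (vorinostat 2 µM minus control) in replicate pair 1 and the y axis that in replicate pair 2. Red points were called higher (1616 genes), blue points lower (2021 genes) and grey points were not called, and the dashed line marks an equal change. Of the called points 2949 lie on the x axis side of the dashed line, and Dsp and Prss16 lie on it at the upper right.

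The pairing decides how many genes pass. Without it, the difference between replicates counts as spread, and 326 genes passed (3.3%), 252 higher (2.55%) and 74 lower (0.75%), all of them among the 3637. The median 95% interval of a change reached 0.35 log2 units to each side with the pairing and 0.97 without it. The share of called genes that were higher was 44.4%, 77.3% without the pairing and 55.0% with array medians set equal. The median change over all tested genes was -0.03 and 0.05 with equal medians. Normalization of the deposited values can hold this centre in place, so a shift of all genes with the drug was not tested. Leaving out the vorinostat array of replicate 1 gave 1771 called genes and leaving out the control array of replicate 1 gave 1715. Counts for gene lists below come from the paired fit. The number that also passes without the pairing follows them, and so do the counts without 1 of these 2 arrays where the total of a list differs by over 1.5 times. Counts are to be read beside the 36.8% called over all genes. In 9 of 38 lists the called share was at or under it. These were deacetylases, polycomb and DNA methylation, CD8 identity, T cell receptor signalling, cytotoxic granules, AP-1 and related factors, homing, class II presentation and death receptors. In 11 it was over 1.5 times as large: acetyltransferases, interferon response, IRG and GBP GTPases, class I presentation, mitosis and DNA replication. The others of the 11 were ribosome building, lipid synthesis, heat shock and metallothioneins, actin and membrane shaping, and mitochondrial respiration.

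The 15 largest rises among genes detected in both groups included the chemokines Ccl5 and Ccl9, the cytokines Tnf and Lta and the interferon-induced GTPases Iigp1 and Gbp2b. Ccl5 rose most. This chemokine, which attracts T cells and monocytes, stood at 14.01 and 12.33 log2 units in the vorinostat arrays, against 8.73 and 8.92 in the control arrays, a change of 4.34 ± 0.49 (adjusted p = 2.9e-05). Both vorinostat arrays lay over 3 log2 units above both control arrays. The related chemokine Ccl9 stood at 9.56 and 7.20 with vorinostat and 5.73 and 3.38 in the controls, a change of 3.82 ± 0.58. Tnf and Lta, cytokines that signal through receptors of the TNF family, lie next to each other on chromosome 17 and rose by much the same amount. Tnf stood at 10.12 and 9.63 with vorinostat and 6.45 and 6.72 in the controls, a change of 3.29 ± 0.42. Lta stood at 12.85 and 10.61 with vorinostat and 9.003 and 7.91 in the controls, a change of 3.28 ± 0.45.

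Marcks, Fscn1 and Mpzl1 were also among the 15. Marcks, a substrate of protein kinase C that ties actin to the plasma membrane, stood at 9.97 and 9.28 log2 units in the vorinostat arrays, against 6.15 and 5.56 in the control arrays, a change of 3.77 ± 0.21 (adjusted p = 6.51e-08). Fscn1, which bundles actin filaments, stood at 12.12 and 10.35 with vorinostat and 8.39 and 7.66 in the controls. The surface glycoprotein Mpzl1, which binds the phosphatase SHP-2, stood at 8.90 and 7.58 with vorinostat and 5.02 and 3.52 in the controls, a change of 3.97 ± 0.31. In none of these did the arrays of the groups overlap (32.9% of all genes tested had no overlap), but they were chosen by their change in these same arrays. The interferon-induced GTPase Iigp1 changed by 3.28 ± 0.45 and the guanylate-binding protein Gbp2b by 3.25 ± 0.43. The others among the 15 were Acbd7, an acyl-CoA binding protein (3.59 ± 0.47), the zinc finger factor Plagl1 (3.45 ± 0.38) and the septin Septin4 (3.39 ± 0.50). They also held the peptide transporter Slc15a3 (3.37 ± 0.43), the elongation cofactor Eaf2 (3.19 ± 0.47) and the amyloid precursor-like protein Aplp1 (3.08 ± 0.20). All 15 kept their call when any 1 of the 4 arrays was left out, and 12 passed without the pairing; Ccl9, Lta and Aplp1 did not. Their size depends on the probe set that stands for the gene. With the mean of all probe sets, which stayed called, the change was 0.89 for Fscn1, 1.15 for Plagl1, 1.55 for Aplp1, 2.27 for Marcks and 2.58 for Mpzl1.

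**Figure D2:**
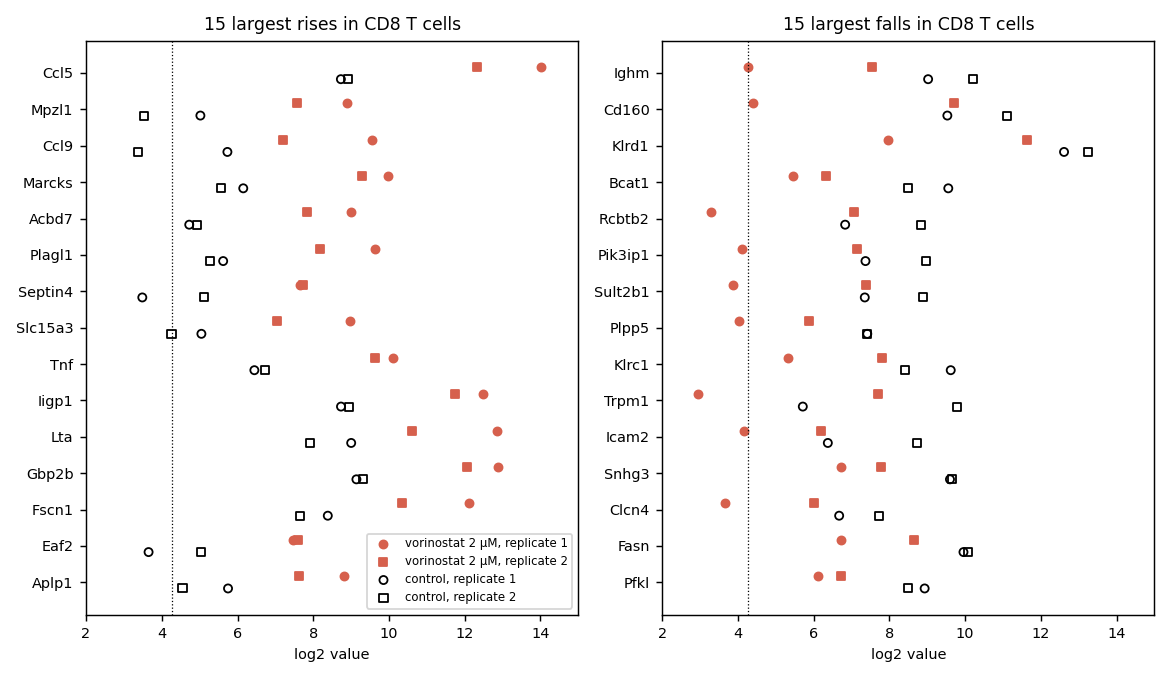
The log2 value of each array is plotted for the 15 largest rises (left) and the 15 largest falls (right). Filled red symbols, drawn above, are the vorinostat 2 µM arrays and open symbols are the control arrays, circles stand for replicate 1 and squares for replicate 2, and the dotted line is the detection level of 4.27. The vorinostat symbols lie to the right of the control symbols for all 15 rises, whereas for falls such as Cd160 and Trpm1 the replicates lie far apart within each group.

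Another 8 rises began under the detection level in the controls, and their size is given as a bound against that level. Dsp, desmoplakin of cell junctions in epithelium and heart, stood at 9.18 and 8.27 log2 units with vorinostat and 4.25 and 3.31 in the controls, at least 21.9-fold higher. Prss16, a serine protease of the thymus, stood at 7.93 and 7.62 with vorinostat and 2.92 and 2.66 in the controls, at least 11.3-fold higher. For Npl, an enzyme of sialic acid breakdown, the bound was 11.1-fold, for the vesicle protein Dmxl2 7.82-fold and for Tmcc3 7.32-fold. The neuronal kinesin Kif5c was at least 6.49-fold higher, the phospholipase Abhd3 at least 6.21-fold and the selenoprotein Selenom at least 5.27-fold. All 8 passed without the pairing and after leaving out any 1 of the 4 arrays. In none of them did the groups overlap (32.9% of all genes tested had no overlap), but they too were chosen by their change. With the mean of all probe sets Kif5c changed by 1.32 and Tmcc3 by 1.49, and both stayed called.

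The stretch upstream of the transcription start is shown for 4 rises and 1 fall to show how unlike these promoters are. Each is the 250 bases before the start in RefSeq on the build GRCm38.p6, 5' to 3' on the strand of the gene. Capitals mark GC boxes (GGGCGG, bound by factors of the Sp1 type) and TATA boxes (TATAAA), searched on both strands. Mpzl1 lies at chr1:165634542-165634791, Dsp at chr13:38151044-38151293, Tnf at chr17:35202008-35202257 and Lta at chr17:35205352-35205601. Klrc1, which fell, lies at chr6:129678974-129679223. Dsp is on the plus strand and the others on the minus strand.
Mpzl1: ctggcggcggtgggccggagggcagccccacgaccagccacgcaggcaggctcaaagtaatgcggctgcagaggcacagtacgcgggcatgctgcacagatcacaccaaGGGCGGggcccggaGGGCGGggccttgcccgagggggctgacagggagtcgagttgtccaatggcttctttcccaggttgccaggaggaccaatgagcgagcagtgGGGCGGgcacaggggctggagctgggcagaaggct
Dsp: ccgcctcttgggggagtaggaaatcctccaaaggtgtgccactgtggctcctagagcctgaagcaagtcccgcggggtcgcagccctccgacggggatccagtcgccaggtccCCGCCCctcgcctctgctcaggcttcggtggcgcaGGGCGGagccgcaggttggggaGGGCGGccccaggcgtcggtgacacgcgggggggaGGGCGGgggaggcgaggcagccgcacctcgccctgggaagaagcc
Tnf: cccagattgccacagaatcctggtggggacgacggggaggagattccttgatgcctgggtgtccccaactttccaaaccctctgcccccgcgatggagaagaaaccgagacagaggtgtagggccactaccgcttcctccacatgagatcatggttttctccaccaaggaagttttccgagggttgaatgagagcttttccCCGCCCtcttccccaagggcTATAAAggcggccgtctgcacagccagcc
Lta: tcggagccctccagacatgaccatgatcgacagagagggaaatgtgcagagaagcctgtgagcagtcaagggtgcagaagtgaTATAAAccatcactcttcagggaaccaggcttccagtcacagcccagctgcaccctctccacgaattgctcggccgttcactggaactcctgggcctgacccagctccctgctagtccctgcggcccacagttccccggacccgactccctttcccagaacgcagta
Klrc1: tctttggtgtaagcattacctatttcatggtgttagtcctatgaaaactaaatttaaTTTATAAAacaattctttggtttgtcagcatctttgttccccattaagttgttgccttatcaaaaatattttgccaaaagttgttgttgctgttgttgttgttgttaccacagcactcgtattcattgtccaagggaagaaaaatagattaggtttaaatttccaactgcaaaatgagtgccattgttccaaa
The Mpzl1 window holds 3 GC boxes and that of Dsp 4, and neither holds a TATA box. In the Tnf window 1 box of each kind was found, Lta has 1 TATA box and no GC box, and Klrc1 2 TATA boxes that overlap on opposite strands. Among 10343 such windows, which cover 8100 of the 9871 tested genes, 59.4% hold a GC box and 6.02% a TATA box. For genes called higher by over 1 log2 unit the shares were 61.4% and 9.48% of 601 windows. For genes called lower by over 1 log2 unit they were 50.5% and 8.80% of 523 windows. These letters are matches and not measured binding sites.

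The 15 largest falls among genes detected in both groups included the natural killer type receptors Klrd1, Klrc1 and Cd160, the enzymes Bcat1, Pfkl and Fasn, and the immunoglobulin gene Ighm. Klrd1 (CD94) and Klrc1 (NKG2A) form a receptor that inhibits killing when it meets a class Ib molecule. Klrd1 stood at 7.96 and 11.63 log2 units in the vorinostat arrays, against 12.61 and 13.25 in the control arrays, a change of -3.14 ± 0.94 (adjusted p = 0.0165). Klrc1 stood at 5.31 and 7.81 with vorinostat and 9.62 and 8.40 in the controls, a change of -2.45 ± 0.83. Cd160, a receptor shared by natural killer and CD8 T cells, stood at 4.41 and 9.70 with vorinostat and 9.53 and 11.12 in the controls. Its groups overlap, because the vorinostat array of replicate 2 lies above the control array of replicate 1. The drop of all 3 receptors was larger in replicate 1, and none of the 3 calls held without the vorinostat array of replicate 1 (changes of -2.48 for Klrd1, -1.41 for Klrc1 and -2.20 for Cd160) or without the control array of replicate 1. Klrd1 and Klrc1 also lost their call with the actin covariate, with CD8 arrays alone and with no filter.

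The metabolic enzymes among the falls stood as follows. Bcat1, which starts the breakdown of branched-chain amino acids, stood at 5.45 and 6.34 log2 units in the vorinostat arrays, against 9.55 and 8.48 in the control arrays, a change of -3.13 ± 0.69. Pfkl, a subunit of the glycolytic enzyme phosphofructokinase, stood at 6.10 and 6.72 with vorinostat and 8.93 and 8.50 in the controls, a change of -2.30 ± 0.28 (adjusted p = 6.02e-05). These 2 falls passed without the pairing and the other 13 of the 15 did not. Fatty acid synthase, Fasn, stood at 6.71 and 8.65 with vorinostat and 9.96 and 10.08 in the controls, and changed by -2.34 ± 0.50. The PI3-kinase inhibitor Pik3ip1 changed by -2.54 ± 0.46, the adhesion molecule Icam2 by -2.39 ± 0.30 and the snoRNA host gene Snhg3 by -2.38 ± 0.26. The remaining falls were Rcbtb2 (-2.66 ± 0.46), the sulfotransferase Sult2b1 (-2.48 ± 0.55), the lipid phosphatase Plpp5 (-2.47 ± 0.48), the cation channel Trpm1 (-2.44 ± 0.37) and the chloride exchanger Clcn4 (-2.36 ± 0.32). Calls lost without the vorinostat array of replicate 1 were Sult2b1 and Fasn besides the 3 receptors, and Bcat1 was lost in addition without the control array of replicate 1. Trpm1 lost it with a block shared by both cell types. Groups did not overlap in 11 of the 15, against 32.9% of all genes tested, but the 15 were chosen by their change in these same arrays. With the mean of all probe sets the change was -1.22 for Bcat1, -1.31 for Pfkl, -0.86 for Trpm1 and -2.00 for Cd160, all still called. With that mean Rcbtb2 did not pass the filter on low values and was not tested. The actin covariate gave changes of -1.75 for Bcat1, -1.35 for Fasn and -1.55 for Plpp5, all still called.

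The largest fall was that of Ighm, the constant region of the IgM heavy chain and a B cell gene. It stood at 4.26 and 7.54 log2 units in the vorinostat arrays, against 9.02 and 10.21 in the control arrays, a change of -3.72 ± 0.63 that was -0.74 and did not pass with the mean of its probe sets. B cell markers were present at a low level: 4 of 9 exceeded the detection level in any of the 4 arrays, Cd79b changed by -1.71 ± 0.58, and Blnk, Cd79a, Ebf1, Fcer2a and Pax5 lay under it in all 4. Of the 7 B cell markers tested 2 fell, 6 with the actin covariate, and 1 without any 1 of the 4 arrays other than the control array of replicate 2. The log2 of their summed level, which holds Ighm itself, was 6.33 and 9.02 with vorinostat and 9.37 and 10.79 in the controls. For natural killer markers, 3 of 8 detected, it was 11.90 and 13.68 with vorinostat and 13.50 and 14.24 in the controls. That sum holds Klrd1, so neither sum is separate from the falls described above. Ncr1, Klra8, Klre1, Tyrobp and Fcer1g were under the detection level in all 4 arrays. In such bulk samples fewer cells of a type and less RNA per cell cannot be told apart, and the part of other cell types in these falls was not tested. Of 7 T cell markers none was called (3 were higher with the actin covariate), and their summed level was 14.38 and 15.13 with vorinostat and 14.63 and 15.23 in the controls. Myeloid markers (2 of 12 detected) summed to 7.598 and 7.607 with vorinostat and 6.75 and 7.74 in the controls. Of markers of CD4 T cells 3 of 6 were detected (10.39 and 10.47 with vorinostat, 10.67 and 10.11 in the controls), without Cd4 itself, and of those of red cells and platelets 0 of 8.

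Falls in which the mean of the 2 vorinostat arrays lay under the detection level included the oxysterol receptor Gpr183, at 2.54 and 5.28 log2 units with vorinostat and 5.87 and 8.14 in the controls, at least 4.70-fold lower. Chd3, a subunit of a remodelling complex that also holds deacetylases, was at least 3.004-fold lower, with 2.67 and 5.54 in the vorinostat arrays, against 5.13 and 7.85 in the control arrays. The histone H4 methyltransferase Kmt5b was at least 2.19-fold lower and the co-chaperone Bag2 at least 2.63-fold. The bounds were 3.76-fold for Apold1, 3.53-fold for the secreted serpin Serpinf1, 2.54-fold for the potassium channel Kcna2 and 3.21-fold for the growth factor binding protein Igfbp2. In Gpr183, Chd3, Kmt5b, Bag2 and Kcna2 only the vorinostat array of replicate 1 was under the detection level, and that of replicate 2 stood between 4.96 (Bag2) and 5.54 (Chd3). Of these 8 none passed without the pairing, where 3 had an unadjusted p under 0.05. Apold1, Serpinf1, Kcna2 and Igfbp2 were not called without the vorinostat or the control array of replicate 1, nor Kcna2 without either array of replicate 2. Apold1 and Serpinf1 also lost their call with the actin covariate, where they changed by -1.02 and -1.26. Apold1 and Kcna2 lost it with CD8 arrays alone and with no filter, and Kcna2 also with a shared block and with equal medians. Groups did not overlap in 5 of the 8, against 32.9% of all genes tested, but the 8 were chosen by their change. In Chd3, Kmt5b and Kcna2 the vorinostat array of replicate 2 lay above the control array of replicate 1. With the mean of all probe sets Gpr183 changed by -1.91 and Serpinf1 by -1.32, both still called. Kmt5b and Kcna2 did not pass the filter on low values with that mean and were not tested there.

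Of the drug's own targets 11 deacetylase genes were listed and 10 tested. Called were 3 of the 10, against 36.8% of all genes, 2 higher and 1 lower. Hdac1 stood at 11.77 and 11.44 log2 units in the vorinostat arrays, against 11.03 and 11.05 in the control arrays, a change of 0.56 ± 0.11 (adjusted p = 0.00147). Hdac6, the mainly cytoplasmic enzyme that deacetylates tubulin, stood at 7.03 and 7.66 with vorinostat and 5.84 and 6.82 in the controls, a change of 1.01 ± 0.34. Hdac8 stood at 3.89 and 5.80 with vorinostat and 4.69 and 6.42 in the controls, a change of -0.71 ± 0.20. Hdac2 (-0.03 ± 0.11), Hdac3 (-0.09 ± 0.08), Hdac4 (0.45 ± 0.20), Hdac5 (-0.11 ± 0.14) and Hdac7 (-1.04 ± 0.51) were not called. Both group means of Hdac9 and Hdac10 lay under the detection level. No member passed without the pairing, where 1 had an unadjusted p under 0.05. Without the vorinostat or the control array of replicate 1, only 1 was called, and with the actin covariate only Hdac1.

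Called genes among the opposing acetyltransferases and the readers of acetyl marks were all lower. Of 13 acetyltransferases and acetyl readers, 10 fell and none rose, with a median change of -0.50, against -0.03 for all tested genes. Crebbp, the CBP coactivator, stood at 8.94 and 9.50 log2 units with vorinostat and 10.20 and 10.31 in the controls, a change of -1.04 ± 0.13. Kat2b (PCAF) changed by -1.14 ± 0.31, Kat2a (GCN5) by -0.79 ± 0.11 and Kat5 (TIP60) by -0.75 ± 0.21. None of the 10 passed without the pairing, where 1 had an unadjusted p under 0.05, and 3 were lower without the vorinostat array of replicate 1 and also without its control array, and 6 without the vorinostat array of replicate 2. Of 17 polycomb and DNA methylation genes 2 rose (Ezh1, 0.53 ± 0.13, and Cbx7, 0.52 ± 0.13) and 2 fell (Uhrf1, -0.64 ± 0.13, and Dnmt1, -0.28 ± 0.09). None of these 4 passed without the pairing, where 1 gene of the list had an unadjusted p under 0.05, and 1 was called without the vorinostat array of replicate 1 and 2 without the control array of replicate 2. The linker histone H1f2 stood at 8.64 and 8.24 with vorinostat and 6.28 and 6.41 in the controls, a change of 2.10 ± 0.34 that did not pass without the pairing.

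Cytokines and chemokines by which CD8 T cells act on other cells rose or did not pass. Of 22 tested, 9 rose and none fell, with a median of 0.79. After Ccl5, Ccl9, Tnf and Lta came the chemokines Ccl4 and Ccl3. Ccl4 stood at 12.70 and 13.15 log2 units with vorinostat and 10.30 and 10.63 in the controls, and Ccl3 at 13.66 and 13.84 with vorinostat and 11.71 and 11.77 in the controls. Il2, the T cell growth factor, changed by 1.996 ± 0.52, the CXCR3 ligand Cxcl10 by 1.98 ± 0.55 and the myeloid growth factor Csf2 by 1.59 ± 0.57. Ifng, the interferon that defines this cell type's response, had 15.20 and 14.26 with vorinostat and 14.40 and 13.44 in the controls, with a change of 0.81 ± 0.39 that did not pass (adjusted p = 0.12). The other uncalled members ran from -0.59 for Ltb to 0.84 for Ccl1, and Il4, Il5, Il10, Il13, Il21 and Il24 lay under the detection level in all 4 arrays. Ccl5 and Tnf passed without the pairing, 5 genes without the vorinostat array of replicate 1, and 6 without the control array of replicate 1 or the vorinostat array of replicate 2. With the actin covariate 13 rose.

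Few genes of the killing machinery were called. Of 13 cytotoxic granule genes 1 rose and 1 fell. Granzyme B, Gzmb, had 15.26 and 14.74 log2 units with vorinostat and 14.83 and 14.41 in the controls, and perforin, Prf1, had 11.57 and 11.19 with vorinostat and 11.20 and 10.08 in the controls. Neither passed, with changes of 0.38 ± 0.39 and 0.74 ± 0.71. The granule membrane protein Lamp1 rose by 0.53 ± 0.14. Unc13d (Munc13-4), which primes granules for release, stood at 6.24 and 6.84 with vorinostat and 8.18 and 8.11 in the controls, a change of -1.598 ± 0.22 that also passed without the pairing. The rest lay between -0.60 (Gzmc) and 1.03 (Fasl). Lamp1 lost its call without either array of replicate 1, and with the actin covariate 6 members rose and 1 fell.

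Receptors and signal carriers of cytokines rose in number. Of 29 tested members of cytokine receptor and JAK-STAT signalling, 12 rose and 1 (Ifngr1, -0.49) fell, with a median of 0.48. Il2ra, the alpha chain of the IL-2 receptor, stood at 11.27 and 10.72 log2 units with vorinostat and 9.45 and 8.81 in the controls, a change of 1.86 ± 0.33. Il12rb1, a chain of the IL-12 receptor, stood at 9.16 and 8.87 with vorinostat and 6.57 and 6.38 in the controls, a change of 2.54 ± 0.29. The feedback inhibitors Socs2 (2.46 ± 0.27), Socs3 (1.77 ± 0.25) and Cish (1.39 ± 0.32) and the kinase Jak2 (1.34 ± 0.17) rose as well. Of the 12 rises 6 passed without the pairing, 7 without the vorinostat array of replicate 1 and 6 without the control array of replicate 1.

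Transcription factors of the effector state were among the rises. Of 21 tested, 8 rose and 1 fell, with a median of 0.01, so the rest of the list lay on both sides of 0. Tbx21 (T-bet), the factor of effector and type 1 cells, stood at 11.53 and 10.93 log2 units with vorinostat and 9.12 and 8.87 in the controls, a change of 2.24 ± 0.25. Prdm1 (Blimp-1), a repressor of terminal effector cells, stood at 6.53 and 5.96 with vorinostat and 3.02 and 3.21 in the controls, where it was under the detection level, at least 3.93-fold higher. Irf4 changed by 1.72 ± 0.16, Nfil3 by 1.78 ± 0.20, Batf3 by 1.91 ± 0.42, Id2 by 1.46 ± 0.28, Irf8 by 1.27 ± 0.23 and Foxo1 by 0.59 ± 0.19. The memory-related Eomes (-0.07 ± 0.28), Lef1 (-0.36 ± 0.17), Bach2 (0.01 ± 0.24) and Id3 (0.08 ± 0.16) did not pass, and Bcl6 (-0.88 ± 0.34) did not either (adjusted p = 0.0533). Ikzf2 (Helios) fell by 1.62 ± 0.26. Tbx21, Prdm1, Irf4, Nfil3, Id2 and Irf8 passed without the pairing.

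Immediate early factors were called no more often than all genes. Of 17 genes of the AP-1, NFAT, EGR and NR4A families 6 rose and none fell (median 0.35), which is 35.3%, against 36.8% of all genes. Atf3 stood at 8.39 and 6.03 log2 units with vorinostat and 5.38 and 4.26 in the controls, a change of 2.39 ± 0.23, and Jun at 10.27 and 10.48 with vorinostat and 8.82 and 9.16 in the controls, a change of 1.39 ± 0.16. Egr2 changed by 1.504 ± 0.27, Fos by 1.36 ± 0.38, Nfatc2 by 1.18 ± 0.19 and Egr1 by 0.70 ± 0.22. Egr2 alone passed without the pairing. Of 14 genes of NF-kappaB and its inhibitors 5 rose, among them Rel (1.03 ± 0.30) and the inhibitors Nfkbiz (1.08 ± 0.27), Nfkbie (0.97 ± 0.21) and Nfkbia (0.51 ± 0.16), and Rela (-0.41 ± 0.10) fell. None of the 6 passed without the pairing, where 2 rises and 1 fall had an unadjusted p under 0.05. Without the vorinostat array of replicate 1 the list held 1 rise and 1 fall, and without the control array of replicate 1 it held 2 rises.

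Genes of antigen receptor signalling and costimulation were called about as often as all genes (36.8%), 6 of 19 and 4 of 10. In the T cell receptor list 2 of 19 rose (Malt1, 0.83 ± 0.25, and the kinase Fyn, 0.63 ± 0.13) and 4 fell. The adaptor Lcp2 (SLP-76) stood at 9.27 and 10.67 log2 units with vorinostat and 11.54 and 11.78 in the controls, a change of -1.69 ± 0.62, the kinase Prkcq changed by -1.13 ± 0.23, Rasgrp1 by -0.86 ± 0.27 and Plcg1 by -0.43 ± 0.11. The median of the list was -0.32, but 0.05 with the actin covariate, where Lcp2 and Rasgrp1 lost their call. Zap70, the kinase that binds the phosphorylated receptor, had a change of -1.11 ± 0.57 that did not pass. Among TNF family costimulators Tnfsf14 (LIGHT, 1.77 ± 0.37) and Tnfsf4 (OX40L, 1.15 ± 0.35) rose, and Cd27 (-1.70 ± 0.56) and Tnfsf8 (CD30L, -1.52 ± 0.38) fell, of 10 tested. No gene of these 2 lists passed without the pairing; in the first none had an unadjusted p under 0.05, and in the second 2 did. Leaving out either array of replicate 1 or the vorinostat array of replicate 2 left 3 calls in the first list each time. In the second it left 2 without the vorinostat array of replicate 1, and 1 without its control array or without the vorinostat array of replicate 2.

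Of 13 genes of the CD28 family and of checkpoint receptors 3 rose and 3 fell. Pdcd1 (PD-1), the inhibitory receptor of activated T cells, stood at 9.11 and 10.27 log2 units with vorinostat and 11.34 and 11.36 in the controls, a change of -1.66 ± 0.49 (adjusted p = 0.0158). Tox, a factor tied to lasting PD-1 expression, changed by -1.15 ± 0.34, and Cd160 is given above. In the other direction Lag3 stood at 9.94 and 10.43 with vorinostat and 9.08 and 9.30 in the controls, a change of 0.997 ± 0.27, the costimulator Icos changed by 1.13 ± 0.30 and Havcr2 (TIM-3) was at least 1.46-fold higher, from under the detection level in the controls. Ctla4 (0.14 ± 0.24) and Cd28 (0.48 ± 0.29) did not pass. With the actin covariate 4 genes rose and 1, Cd160, fell, so Pdcd1 and Tox lost their call. The median of the list was then 0.34 in place of -0.10. The 6 calls of the main fit are fragile. None held without the pairing, where 1 rise and 2 falls had an unadjusted p under 0.05, and 1 gene of the list was called without the vorinostat array of replicate 1, 1 without the control array of replicate 1 and 2 without the vorinostat array of replicate 2.

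In the lists of CD8 identity and homing 2 of 8 and 5 of 18 genes were called, against 36.8% of all genes, and 5 of 8 and 9 of 18 with the actin covariate. Of 8 identity genes Crtam, a class I-restricted T cell adhesion receptor, rose by 1.66 ± 0.44 and Runx1 fell by 1.11 ± 0.23. Runx3, which silences Cd4, had a change of 0.65 ± 0.26 that did not pass. Neither call held without the pairing, where 2 members had an unadjusted p under 0.05, and Crtam lost it without the vorinostat array of replicate 1 and without the control array of replicate 2. Of 18 homing and adhesion genes the activation markers Cd69 (1.64 ± 0.37) and Cd44 (1.09 ± 0.18) and the integrin chain Itgb1 (0.76 ± 0.21) rose, and the chemokine receptor Cxcr4 (-1.43 ± 0.36) and the integrin chain Itgae (-0.64 ± 0.15) fell. None of the 5 passed without the pairing, where 3 members, all higher, had an unadjusted p under 0.05, and either array of replicate 1 left out gave 3 calls. With the actin covariate 4 identity genes were higher and 1 lower, and 7 homing genes higher and 2 lower.

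Interferon-induced GTPases rose as a family. The IRG and GBP proteins attack the vacuoles of intracellular microbes. Of 9 tested, 8 rose and none fell, with a median of 1.53, and 7 passed without the pairing. Iigp1 stood at 12.49 and 11.76 log2 units in the vorinostat arrays, against 8.73 and 8.95 in the control arrays. Gbp2 stood at 13.13 and 12.84 with vorinostat and 10.06 and 10.35 in the controls, a change of 2.78 ± 0.38. Gbp7 stood at 13.13 and 13.06 with vorinostat and 11.53 and 11.46 in the controls, a change of 1.598 ± 0.11 (adjusted p = 6.31e-07). Gbp6, Igtp, Irgm2, Irgm1 and Gbp8 changed by 1.65, 1.53, 1.51, 1.46 and 1.20, and Gbp3 (0.39 ± 0.15) just missed the threshold. The family shares sequence, and whether RNA of 1 member bound probes of another was not tested.

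Other interferon genes rose less evenly. Of 12 tested, 6 rose and 1 fell (Irf9, -0.67 ± 0.13), with a median of 0.69. Samhd1, a nucleotidase that restricts viruses, stood at 11.10 and 12.31 log2 units with vorinostat and 9.55 and 10.85 in the controls, a change of 1.51 ± 0.14. The deconjugating enzyme Usp18 changed by 1.55 ± 0.19, the RNA sensor Ifih1 (MDA5) by 1.23 ± 0.24, Irf1 by 1.02 ± 0.38 and Stat2 by 0.97 ± 0.29. Ifit1 reached 4.08 and 5.36 with vorinostat and 2.31 and 2.61 in the controls, at least 1.37-fold higher. Usp18 and Ifih1 passed without the pairing. In class I antigen presentation 4 genes rose and 4 fell, of 13 tested. The immunoproteasome subunits split: Psmb9 rose by 0.62 ± 0.15, and Psmb10 stood at 7.94 and 8.95 with vorinostat and 10.34 and 10.27 in the controls, a change of -1.86 ± 0.29. The trimming enzyme Erap1 changed by -1.43 ± 0.34 and the class Ib gene H2-M3 by -0.82 ± 0.25. In class II presentation H2-Ab1 (0.998 ± 0.18) and H2-DMa (0.75 ± 0.21) rose, of 6 tested. No gene of either presentation list passed without the pairing, where 2 falls of class I genes and 1 rise of a class II gene had an unadjusted p under 0.05. Without the vorinostat array of replicate 1, 2 class I genes and 1 class II gene were called, and 1 of each without the control array of replicate 1. Without the control array of replicate 2, 3 class II genes were called. The actin covariate left 4 class I calls (1 higher, 3 lower) and 1 class II call.

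**Figure D3:**
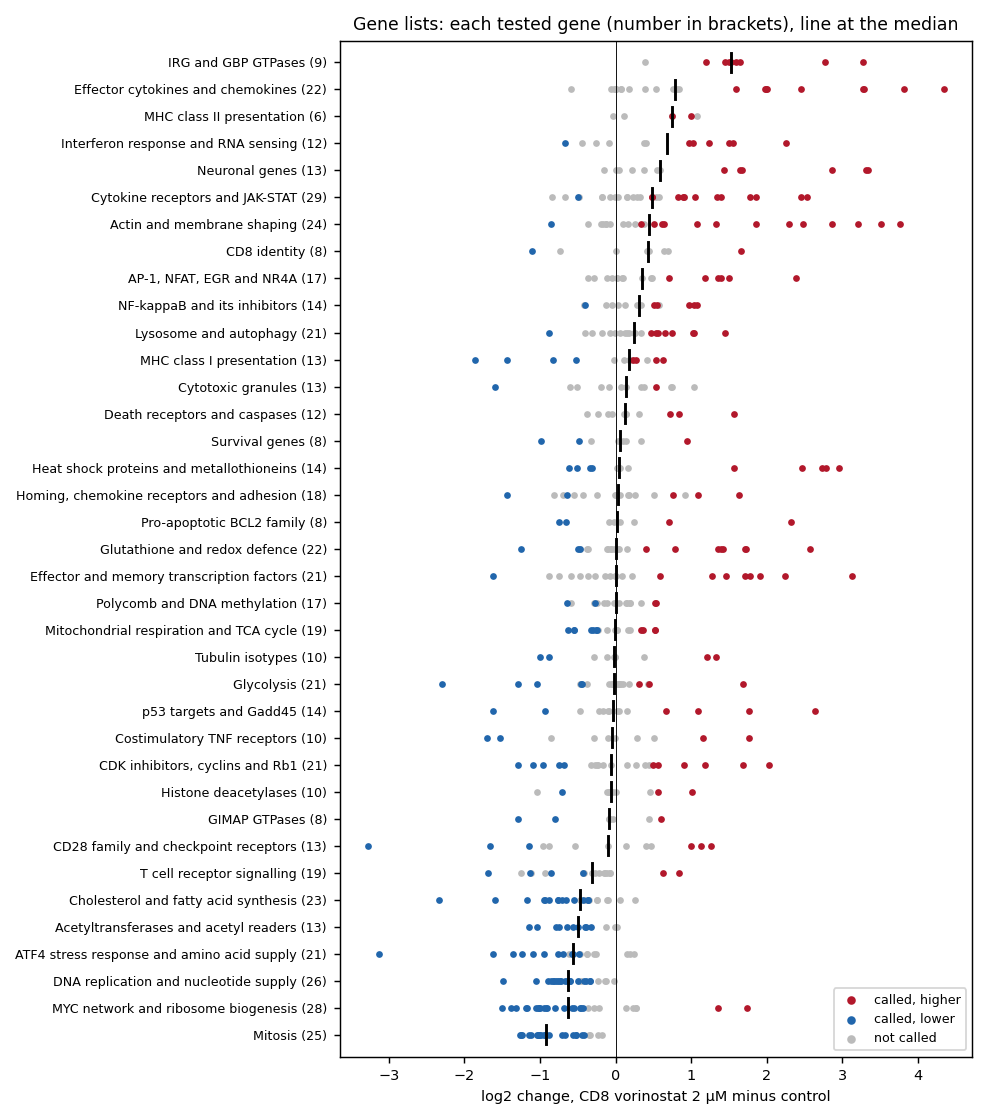
Each point is 1 tested gene of a list, placed by its log2 change (vorinostat 2 µM minus control, x axis). Red points were called higher, blue points lower and grey points were not called, black bars mark the median of a list, and the number of tested genes stands in brackets. IRG and GBP GTPases lie at the top with a median of 1.53 and mitosis at the bottom with -0.92.

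Genes of cell division fell together, by modest amounts. Of 25 mitosis genes 21 fell and none rose, with a median of -0.92 (-1.21 in replicate 1 and -0.57 in replicate 2). Ccnb2, a cyclin of mitotic entry, stood at 8.26 and 9.99 log2 units with vorinostat and 9.91 and 10.88 in the controls, a change of -1.27 ± 0.19. Cdc20, which activates the anaphase-promoting complex, stood at 10.65 and 11.36 with vorinostat and 12.16 and 12.14 in the controls, a change of -1.15 ± 0.16. The kinesin Kif20a changed by -1.25 ± 0.23 and the centromeric histone Cenpa by -1.23 ± 0.27. Of 26 genes of DNA replication and nucleotide supply 19 fell and none rose, with a median of -0.63, among them Tk1 (-1.49 ± 0.35), Cdc45 (-1.06 ± 0.21), Pola1 (-0.90 ± 0.16) and Lig1 (-0.85 ± 0.15). No gene of these 2 lists passed without the pairing; 6 of the first and 3 of the second had an unadjusted p under 0.05. Without the vorinostat array of replicate 1, 12 genes of each list were lower, and without the control array of replicate 1 the numbers were 11 and 9.

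Regulators of the cell cycle moved both ways. Of 21 tested, 6 rose and 5 fell. The D-type cyclins, which drive entry into the cycle, were higher. Ccnd2 stood at 13.29 and 12.94 log2 units with vorinostat and 11.86 and 12.01 in the controls, a change of 1.18 ± 0.20, Ccnd3 changed by 0.56 ± 0.18, and Ccnd1 was at least 2.62-fold higher, from under the detection level in the controls. Higher too were the brakes Cdkn1c (p57, at least 1.84-fold, from under that level), Cdkn2d (p19, 0.50 ± 0.14) and Rb1 (0.90 ± 0.17). Cdkn1a (p21), known as a target of deacetylase inhibitors in many cell lines, had a change of 0.39 ± 0.26 that did not pass (adjusted p = 0.256). Lower were E2f8 (-1.29 ± 0.23), E2f7 (-1.09 ± 0.18), Ccna2 (-0.96 ± 0.17), E2f2 (-0.75 ± 0.17) and Cdk4 (-0.69 ± 0.13). Of the rises 4 passed without the pairing and of the falls none, with no fall at an unadjusted p under 0.05.

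Growth arrest and death genes gave scattered calls. All 3 Gadd45 genes, which respond to stress and DNA damage, rose. Gadd45g stood at 9.75 and 8.92 log2 units with vorinostat and 5.90 and 7.48 in the controls, a change of 2.64 ± 0.45, Gadd45b changed by 1.77 ± 0.29 and Gadd45a by 1.09 ± 0.40. Of the other p53-related genes Btg1 (0.67 ± 0.19) rose, Plk2 (-1.62 ± 0.38) and Phlda3 (-0.93 ± 0.28) fell, and 8 of the 14 tested did not pass. Bmf, a BH3-only protein that triggers apoptosis, stood at 7.43 and 7.58 with vorinostat and 5.02 and 5.33 in the controls, a change of 2.33 ± 0.31. Pmaip1 (Noxa) changed by 0.71 ± 0.21, and Bid (-0.65 ± 0.11) and Bak1 (-0.75 ± 0.19) fell. Of 8 survival genes Bcl2l1 (BCL-XL) rose by 0.94 ± 0.19, and Birc3 (-0.99 ± 0.19) and Xiap (-0.48 ± 0.11) fell, and with the actin covariate 4 rose and 2 fell. The death receptor Fas stood at 9.82 and 10.07 with vorinostat and 8.22 and 8.54 in the controls, a change of 1.57 ± 0.19, and Tradd (0.84 ± 0.18) and Casp6 (0.73 ± 0.25) rose, of 12 tested. Gadd45g, Gadd45b, Bmf and Fas passed without the pairing. Without the vorinostat array of replicate 1 the calls of the p53-related list came to 2, and without its control array to 3, and those of the pro-apoptotic list to 2 in both cases. The control array of replicate 1 left out also gave 1 call in the death receptor list, and that of replicate 2 gave 3 calls in the p53-related list.

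Genes of ribosome building fell, and Myc did not pass the test. Of 28 genes of the MYC network and ribosome biogenesis 2 rose and 19 fell, with a median of -0.63. Utp20 stood at 6.76 and 7.45 log2 units with vorinostat and 8.46 and 8.74 in the controls, a change of -1.498 ± 0.14. The snoRNP protein Nop56 stood at 10.46 and 11.18 with vorinostat and 12.16 and 12.26 in the controls, a change of -1.39 ± 0.24. Polr1b, a subunit of RNA polymerase I, changed by -1.32 ± 0.27 and Dkc1 (dyskerin) by -1.19 ± 0.20. Myc had a change of 0.27 ± 0.31 that did not pass, whereas its antagonist Mxd1 stood at 7.999 and 8.01 with vorinostat and 5.90 and 6.63 in the controls, a change of 1.74 ± 0.22. Mycn was at least 1.10-fold higher, from under the detection level in the controls. Without the pairing Mxd1 rose and 4 genes fell, and leaving out 1 array left at least 14 lower.

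Biosynthesis of lipids and amino acids fell. Of 23 genes of cholesterol and fatty acid synthesis 14 fell and none rose, with a median of -0.47 (-0.84 in replicate 1 and -0.25 in replicate 2). Besides Fasn these were led by the elongase Elovl6 (-1.602 ± 0.35), the sterol sensor partner Insig1 (-1.18 ± 0.17) and Lss (-0.95 ± 0.15), of which Insig1 and Lss passed without the pairing. Of 21 genes of the ATF4 stress response and amino acid supply 11 fell and none rose, with a median of -0.56. Phgdh, the first enzyme of serine synthesis, stood at 11.70 and 12.29 log2 units with vorinostat and 13.30 and 13.15 in the controls, a change of -1.23 ± 0.22. Shmt2, the mitochondrial serine hydroxymethyltransferase, changed by -1.36 ± 0.23, and Vldlr by -1.63 ± 0.60. Of the 11 falls in this list 2 passed without the pairing. Without the vorinostat array of replicate 1, 7 lipid and 5 ATF4 genes were lower, and without the control array of replicate 1 these numbers were 6 and 4. With the actin covariate 5 ATF4 genes were lower.

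Glycolysis and respiration changed gene by gene. Of 21 glycolytic genes 3 rose and 5 fell (median -0.02). Besides Pfkl the falls were those of Eno3 (-1.29 ± 0.31), Tpi1 (-1.03 ± 0.22), Pkm (-0.46 ± 0.16) and Ldha (-0.44 ± 0.12). Eno2, the neuronal enolase, stood at 7.15 and 6.71 log2 units with vorinostat and 5.13 and 5.35 in the controls, a change of 1.69 ± 0.31. Pfkl, Tpi1 and Eno2 passed without the pairing, and the calls came to 3 without the vorinostat array of replicate 1 and to 2 without its control array. Of 19 mitochondrial genes 4 rose and 7 fell, between -0.63 (Ndufs1) and 0.53 (Idh2), and none passed without the pairing, where 1 rise had an unadjusted p under 0.05. The mitochondrial calls came to 4 without the vorinostat array of replicate 1 and to 2 without its control array.

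Detoxifying and stress proteins included several of the clearer rises. Of 22 glutathione and redox genes 8 rose and 3 fell. The microsomal transferase Mgst3 stood at 11.10 and 10.97 log2 units with vorinostat and 8.31 and 8.61 in the controls, a change of 2.58 ± 0.28, and Gstm5 (at least 2.26-fold higher, from under the detection level), Gsta4 (1.71 ± 0.38) and Gstm1 (1.43 ± 0.24) rose as well. The metallothioneins, which bind zinc and copper, rose as a pair. Mt1 stood at 11.21 and 10.65 with vorinostat and 8.22 and 8.70 in the controls, and Mt2 at 11.003 and 10.55 with vorinostat and 7.52 and 8.58 in the controls. Among heat shock genes the inducible Hspa1b (2.79 ± 0.23) and Hspa1a (1.57 ± 0.39) and the small Hspb1 (at least 2.34-fold higher) rose. The chaperones Hspd1 (-0.62 ± 0.13), Hsph1 (-0.51 ± 0.11), Dnaja1 (-0.34 ± 0.09) and Hsp90aa1 (-0.31 ± 0.08) fell. Falls came to 1 without the vorinostat array of replicate 1 and to 2 without its control array. Without the pairing Hspb1, Hspa1b, Mt1 and Mt2 passed in this list and 3 rises in the glutathione list. Hspa1a and Hspa1b are near-identical copies, so their signals may not be separate. Of 21 lysosome and autophagy genes 8 rose and 1 fell, led by the protease Ctsl (1.45 ± 0.20), which alone passed without the pairing, Npc2 (1.04 ± 0.14) and Lamp2 (1.02 ± 0.17). Calls in the glutathione list came to 7 without the vorinostat array of replicate 1 and to 5 without its control array, which also left 5 in the lysosome list.

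Neuronal genes and genes of actin and membrane shaping rose more often than they fell. Of 13 tested neuronal genes 6 rose and none fell, with a median of 0.59. The ubiquitin hydrolase Uchl1 stood at 5.84 and 6.37 log2 units with vorinostat and 2.59 and 2.94 in the controls, at least 3.58-fold higher. Bex2 stood at 5.71 and 6.46 with vorinostat and 2.51 and 3.03 in the controls, at least 3.52-fold higher. Bex1 changed by 1.68 ± 0.38, Syt11 by 1.65 ± 0.16 and Mapt (tau) by 1.44 ± 0.43, and 5 of the 6 passed without the pairing. The other 13 of 26 listed neuronal genes did not pass the filter on low values, so the rises describe members that were detected somewhere in the series. Of 24 genes of actin and membrane shaping 13 rose and 1 fell, with a median of 0.45. Wasf1 (WAVE1) was at least 3.21-fold higher, the non-muscle myosin Myh10 changed by 2.87 ± 0.27, gelsolin (Gsn) by 2.49 ± 0.23 and vimentin (Vim) by 1.33 ± 0.20, and the leukocyte coronin Coro1a fell by 0.86 ± 0.26. Actb had a change of -0.17 ± 0.14 that did not pass. Without the pairing 6 of the 13 rises in this list passed and the fall did not. The tubulins Tubb2a (1.33 ± 0.35) and Tubb2b (1.21 ± 0.30) rose, and Tubb6 (-1.003 ± 0.29) and Tubb4b (-0.88 ± 0.14) fell, of 10 tested. None of these tubulin calls held without the pairing, where 1 had an unadjusted p under 0.05, and either array of replicate 1 left out gave 1 call. With the actin covariate 1 tubulin was higher and 1 lower. Of 8 GIMAP GTPases Gimap9 (0.61 ± 0.15) rose and Gimap3 (-1.29 ± 0.47) and Gimap1 (-0.80 ± 0.28) fell, none of which passed without the pairing, even at an unadjusted p under 0.05. The GIMAP list held no call without the vorinostat array of replicate 1 (3 unadjusted), and 1 without its control array or without the vorinostat array of replicate 2. With the actin covariate 5 rose and none fell, so the calls of Gimap3 and Gimap1 were lost, and the median was 0.71 in place of -0.08.

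Doses on either side placed these genes on different courses. Against the same control arrays, 1.13% of genes were called at 0.5 µM and 64% at 10 µM, beside the 36.8% at 2 µM. Because the 3 comparisons share the control arrays, values are given side by side. Mpzl1 stood at 5.02 and 3.52 log2 units in the controls, 6.94 and 5.41 at 0.5 µM, 8.90 and 7.58 at 2 µM and 10.31 and 9.81 at 10 µM. Plagl1 stood at 5.62 and 5.28 log2 units in the controls, 6.54 and 6.08 at 0.5 µM, 9.63 and 8.17 at 2 µM and 12.21 and 11.32 at 10 µM. Both were higher at each higher dose in both replicates. Ccl9 took another course, with 5.73 and 3.38 log2 units in the controls, 10.78 and 6.78 at 0.5 µM, 9.56 and 7.20 at 2 µM and 3.89 and 2.65 at 10 µM. It was highest at 0.5 or 2 µM and under the detection level at 10 µM. Lta likewise stood at 9.003 and 7.91 log2 units in the controls, 11.76 and 9.20 at 0.5 µM, 12.85 and 10.61 at 2 µM and 7.95 and 7.96 at 10 µM, near the control level at the highest dose. Among the 15 largest rises, 7 were higher at 10 than at 2 µM, 3 lower (Ccl9, Marcks and Lta) and 5 not called (41.4% of all genes were called in this step, 22.7% higher and 18.6% lower). That step shares the 2 µM arrays by which the genes were chosen.

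**Figure D4:**
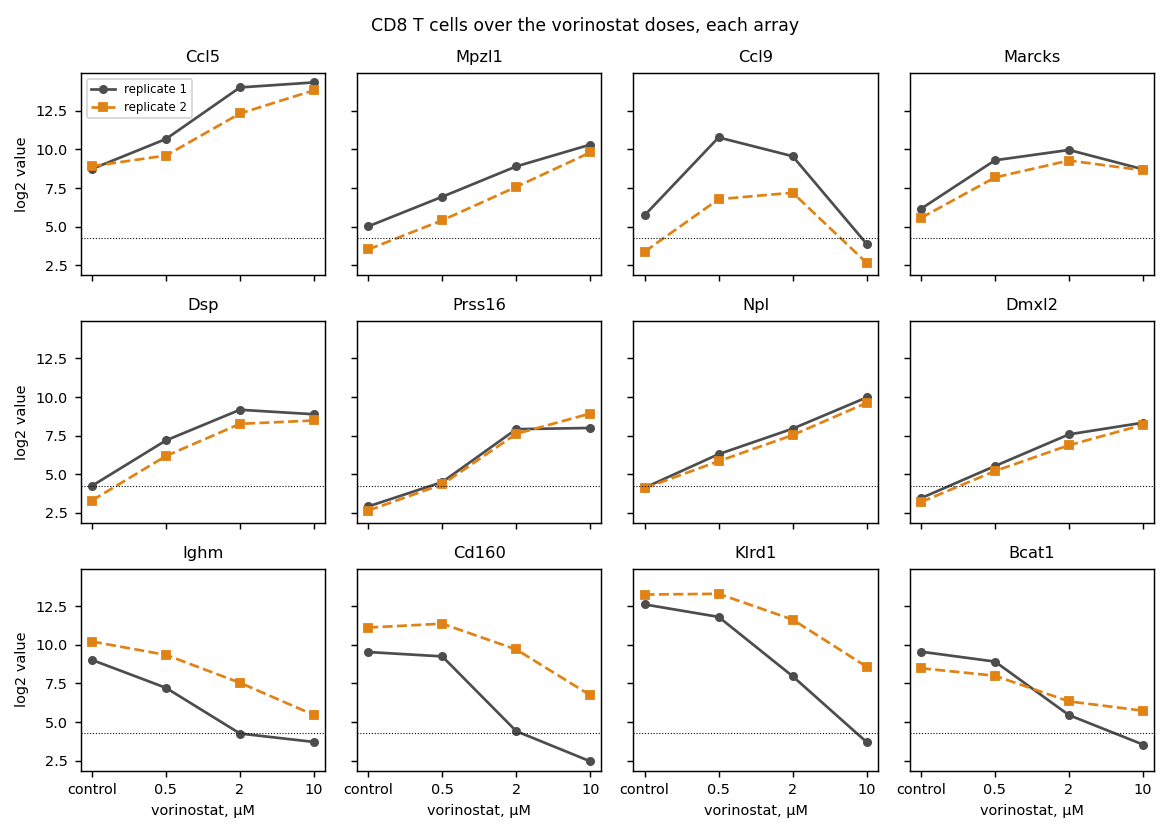
The log2 value in each CD8 array is plotted for control and vorinostat at 0.5, 2 and 10 µM (x axis, steps not to scale) for the 4 largest rises, the 4 largest rises from under the detection level and the 4 largest falls. Solid lines with circles are replicate 1, dashed lines with squares replicate 2, and the dotted line is the detection level of 4.27. Mpzl1, Npl and Dmxl2 rise over all doses, Ccl9 drops under the detection level at 10 µM, and Klrd1 and Cd160 hardly move at 0.5 µM.

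Of the 15 largest falls 7 were lower at 10 than at 2 µM and 8 not called, and none was called at 0.5 µM against control. Klrd1 stood at 12.61 and 13.25 log2 units in the controls, 11.81 and 13.30 at 0.5 µM, 7.96 and 11.63 at 2 µM and 3.70 and 8.58 at 10 µM. Cd160 stood at 9.53 and 11.12 log2 units in the controls, 9.25 and 11.37 at 0.5 µM, 4.41 and 9.70 at 2 µM and 2.45 and 6.73 at 10 µM. In both the values at 0.5 µM lay within 1 log2 unit of the controls, and those at 10 µM were lowest. For the cytokine list the median change was 0.75 at 0.5 µM, 0.79 at 2 µM and -0.30 at 10 µM. For cytokine receptors and JAK-STAT it was 0.21 at 0.5 µM, 0.48 at 2 µM and -0.53 at 10 µM. The IRG and GBP list had 0.39 at 0.5 µM, 1.53 at 2 µM and 2.12 at 10 µM, and mitosis -0.33 at 0.5 µM, -0.92 at 2 µM and -1.01 at 10 µM. Over the T cell receptor list the medians were -0.18 at 0.5 µM, -0.32 at 2 µM and -1.83 at 10 µM, with 16 of 19 members called lower than control at the highest dose, against 32.4% of all genes tested.

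The response to vorinostat at 2 µM differed between CD8 and CD4 T cells for 143 of 9871 genes (1.45%), in a test of the difference itself on 4 CD8 and 4 CD4 arrays. For 113 genes (1.14%) the change was more positive in CD8 cells and for 30 (0.304%) more negative. Marcks changed by 3.77 ± 0.21 in CD8 cells and 1.46 in CD4 cells, a difference of 2.30 ± 0.29 (adjusted p = 0.00103). In CD4 cells it stood at 11.03 and 10.33 log2 units with vorinostat and 9.29 and 9.15 in the controls, so the control level was higher there. Ccl5 changed by 4.34 ± 0.49 in CD8 cells and 0.87 in CD4 cells, a difference of 3.47 ± 0.70, with 8.25 and 6.68 with vorinostat and 6.96 and 6.23 in the controls among the CD4 arrays. Il12rb1 and Socs2 changed by 2.54 and 2.46 in CD8 cells, against 0.07 and -0.30 in CD4 cells. Nfil3, Jun and Usp18 also differed, by 2.05 ± 0.28, 1.46 ± 0.22 and 1.78 ± 0.26.

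**Figure D5:**
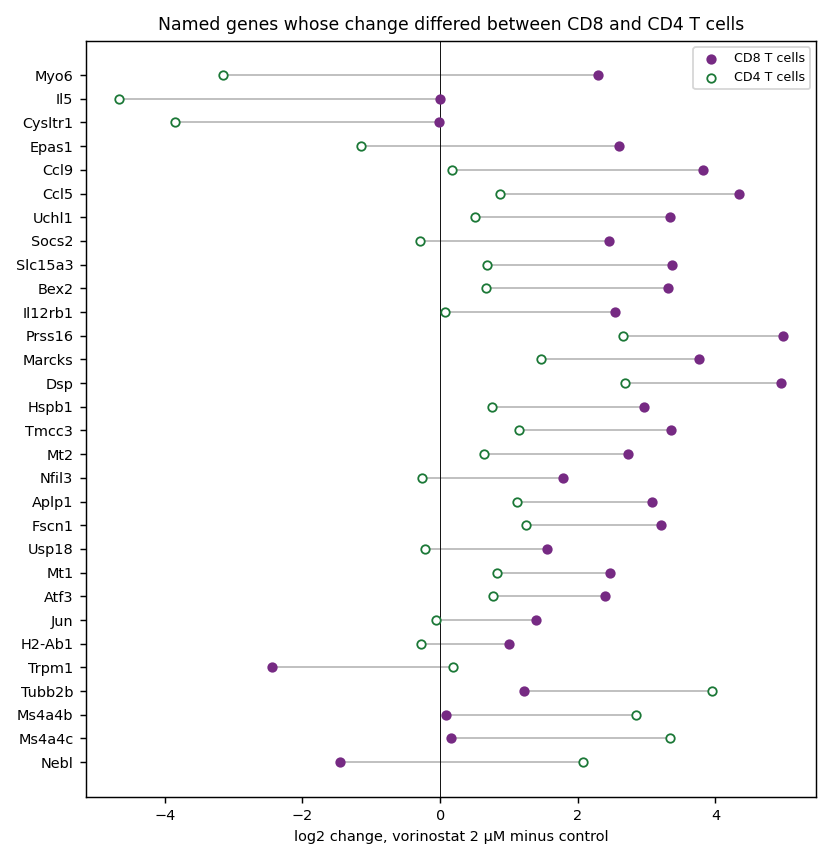
The fitted log2 change with vorinostat at 2 µM (x axis) is shown for each named gene whose change differed between the cell types, filled purple points for CD8 and open green points for CD4 T cells. A grey line joins the 2 points of a gene. Myo6 and Epas1 lie right of 0 in CD8 cells and left of it in CD4 cells, and Il5 and Cysltr1 lie at 0 in CD8 cells, where they were not detected.

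Several genes with the largest fitted differences had groups under the detection level, so only a bound or no size can be given. A bound sets such a group at that level. Epas1 (HIF-2alpha) stood at 5.32 and 6.25 log2 units with vorinostat and 2.93 and 3.45 in the controls among CD8 arrays, and at 7.75 and 8.94 with vorinostat and 8.69 and 10.29 in the controls among CD4 arrays. The difference of the changes was at least 2.66 (adjusted p = 1.2e-05). Myo6, a myosin that moves toward the minus end of actin, stood at 4.97 and 4.91 with vorinostat and 2.78 and 2.52 in the controls among CD8 arrays, and at 6.70 and 9.75 with vorinostat and 11.05 and 11.70 in the controls among CD4 arrays. Its difference was at least 3.83 (adjusted p = 0.000233). Il5 and Cysltr1 were at background in all 4 CD8 arrays, so no size is given for their differences. They fell at least 12.4-fold and 9.43-fold in CD4 cells. More negative in CD8 cells were Ms4a4c (-3.18 ± 0.61), Ms4a4b (-2.76 ± 0.60) and Tubb2b (-2.74 ± 0.43), and Nebl by at least 2.08. Trpm1 was more negative as well and was under the detection level in both CD4 group means. Ms4a4b and Nebl changed by 0.08 ± 0.43 and -1.46 ± 0.36 in CD8 cells, and another probe set of Ms4a4b had the opposite sign there. Ms4a4c changed by 0.16 ± 0.43 in CD8 cells, and its CD4 controls stood at 3.35, under the detection level, and 5.26. The CD4 controls of Ms4a4b lay far apart, at 8.61 and 11.64. Tubb2b rose in both cell types, by 1.21 in CD8 and 3.95 in CD4 cells. Without the pairing 1 gene (Nupr1, named after its value was seen) passed, which is 0.0101%. Leaving out 1 array of replicate 1 gave 44 genes (CD8 vorinostat), 57 (CD8 control), 59 (CD4 vorinostat) and 57 (CD4 control).

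Set directly against CD8 cells kept with romidepsin at 10 nM, another deacetylase inhibitor of unlike structure, vorinostat at 2 µM gave 40 different genes of 9871 (0.405%), 18 higher (0.182%) and 22 lower (0.223%). The doses are those of the study and are not matched. Prss16 stood at 7.93 and 7.62 log2 units with vorinostat and 5.88 and 5.36 with romidepsin, a difference of 2.16 ± 0.28 (adjusted p = 0.00956). Atf3 stood at 8.39 and 6.03 with vorinostat and 6.98 and 4.76 with romidepsin, a difference of 1.34 ± 0.23. Fxyd7 and Etfb were also higher with vorinostat, by 1.35 ± 0.24 and 1.10 ± 0.22, and Spef2, whose romidepsin mean was under the detection level, by at least 0.65. Cenpv stood at 6.85 and 8.67 with vorinostat and 8.45 and 9.87 with romidepsin, a difference of -1.40 ± 0.22, and Clcn4 (-1.55 ± 0.32) was lower with vorinostat as well, a call lost with the actin covariate. Kcnk6, Pdgfrb and Acot1 were lower too, with vorinostat means under the detection level, at least 1.08-fold, 1.86-fold and 1.77-fold. The romidepsin mean of Kcnk6 lay just over that level. Among the 46 largest rises and falls, Prss16 and Clcn4 passed this test. No gene passed without the pairing, where 166 had an unadjusted p under 0.05, nor without the vorinostat array of replicate 1 (609) or the romidepsin array of replicate 2 (1016). Without the romidepsin array of replicate 1, 10 genes passed.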

How the data were processed

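Total RNA was measured on 28 one-colour mouse expression arrays. The authors deposited 1 table of log2 values for 45101 probe sets, made with GCRMA per the submitters' processing notes. Neither the base of the logarithm nor whether all arrays were normalized together is stated there: base 2 is taken from the range of the deposited values, which bottom out in a mode of 2.27. The lowest value was 2.2684 in all arrays numbered 1 and 2.2545 in all numbered 2. Sorted values differed by 0.017 to 0.13 on average between arrays of the same number and by 0.40 to 0.64 between numbers. Whether the numbers were normalized separately was not tested. GCRMA subtracts a background modelled from base composition, so dim genes pile up at that mode and changes from it are compressed. No version was given in the sources used here. The number of arrays limits the precision.

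Probe sets were named from the platform annotation, with symbols updated through RefSeq (18033 of 18194 genes). It gives 34958 of them 1 gene, 932 several and 9211 none; only the first kind was used, and the probe set with the brightest mean over the 28 arrays stood for its gene. Genes above the mode plus 2 log2 units (4.27) in at least 2 arrays were fitted with limma 3.58.1 in R 4.3.3 (lmFit and eBayes), with 14 group means and, separately for CD4 and CD8 arrays, a term for the replicate number (the block), which left 12 residual degrees of freedom. Benjamini-Hochberg adjustment ran over all 9871 tested genes, with a threshold of 0.05. The scripts were tested on simulated data.

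The pairing comes from the replicate numbers in the labels. It was checked on the deviations of arrays from their group means, whose correlation across genes between same-numbered vorinostat 2 µM and control arrays was 0.868, and at least 0.768 over all pairs of CD8 groups. Any difference between the numbers adds to this correlation, whatever its source. Fits without the block, with another normalization, filter, probe set rule or variance model, with an RNA quality covariate and without single arrays were run as alternatives.

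Named genes are the 15 largest called rises and the 15 largest called falls among genes detected in both groups, and up to 8 each way with 1 mean under the detection level. The named genes also hold up to 4 called members of each list, all deacetylases, and the 5 largest called each way of the comparisons with CD4 cells and with romidepsin. List members named beyond these were chosen after their values were seen. For a bound, a group whose mean was under the detection level entered with, per array, the higher of that level and its own value. The members and lists were chosen with earlier results of these data known. Of 699 list entries 646 have a value here and 601 were tested. The rest were not analysed here.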

Additional observations from a re-analysis of the deposited data

Results flagged for a closer look

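A difference in the response to vorinostat at 2 µM between CD8 and CD4 cells, tested by the limma interaction contrast, was found for 143 genes. Positive values mean a more positive change in CD8 cells, on the log2 scale, as fitted. The difference was 5.45 for Myo6, 4.66 for Il5, 3.83 for Cysltr1, 3.74 for Epas1 and 3.66 for Ccl9. Among the largest rises and the list members it was 3.47 for Ccl5, 2.83 for Uchl1, 2.76 for Socs2, 2.68 for Slc15a3 and 2.66 for Bex2. It was 2.47 for Il12rb1, 2.32 for Prss16, 2.30 for Marcks, 2.26 for Dsp, and 2.21 for both Hspb1 and Tmcc3. Further values were 2.09 for Mt2, 2.05 for Nfil3, 1.97 for Aplp1, 1.96 for Fscn1 and 1.78 for Usp18. The smallest positive ones were 1.64 for Mt1, 1.62 for Atf3, 1.46 for Jun and 1.27 for H2-Ab1. Negative differences were -2.63 for Trpm1, -2.74 for Tubb2b, -2.76 for Ms4a4b, -3.18 for Ms4a4c and -3.53 for Nebl. Of these fitted values 4 have a group mean under the detection level and are at least 3.83 (Myo6), 2.66 (Epas1), 1.73 (Tmcc3) and, for Nebl, 2.08 in the negative direction. Another 9, those of Il5, Cysltr1, Ccl9, Uchl1, Bex2, Prss16, Dsp, Hspb1 and Trpm1, have group means under it that leave no bound, so their size and order are not to be read. The cause of these differences was not tested.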

How the results depend on the processing

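The fit with the replicate block gave 3637 called genes between vorinostat at 2 µM and control. Without the replicate block 326 were called. Between 1715 and 3092 were called when 1 array was left out, and between 3089 and 3773 under the other 9 alternatives. With the actin covariate 3645 were called, of which 2644 were among the 3637. No called value of a named gene changed its sign, while the actin covariate moved the medians of 27 of 41 lists and gave 7 of them the opposite sign, that of the T cell receptor list with 0.05 in place of -0.32 among them. The mean of all probe sets moved 14 of the 46 largest rises and falls by over 1.5 times, all toward 0. Rcbtb2, Kcna2 and Kmt5b, also among the 46, did not pass the filter on low values with that mean and were not assessed. For the difference between CD8 and CD4 cells (143 genes), no replicate block gave 1 (209 at an unadjusted p under 0.05), a block shared by both cell types 61 and the actin covariate 423, and leaving out 1 array gave 44 to 139. For vorinostat against romidepsin (40 genes), no replicate block gave 0 in limma (166 unadjusted) and the block on CD8 arrays only gave 0 (1442 unadjusted). A block shared by both cell types gave 3 (Acot1, Ift88 and Wars, named after their values were seen), quantile normalization 74, the intensity trend with robust estimation 75, the actin covariate 134, and 1 array left out 0 to 52. Of 181 genes named for the comparison with control, 112 lost their call without the pairing. Their number was 60 without control replicate 1, 55 without vorinostat replicate 1, 29 with the actin covariate, 23 without vorinostat replicate 2 and 11 without control replicate 2. It was 18 with no filter, 15 with the shared block, 13 with CD8 arrays only, 6 with the mean of probe sets, 5 with equal medians, and 0 with quantile normalization or the intensity trend. The cause of these shifts was not tested, except that fits on fewer arrays have fewer degrees of freedom.

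Having 2 arrays per group limits what can be read from single genes. Changes tended to be larger in replicate 1, the cause of which was not tested, and GCRMA compresses changes of dim genes. These limits weigh most on falls of receptor genes and on genes near the detection level. The actin signal was higher in 3' bias with the drug in both replicates.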
